A study of Mus musculus with 6 samples.

Results

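C-type lectin domain genes of the Clec family were followed in RNA sequencing libraries of macrophages sorted from the mouse stomach. The members are the rows of the deposited table whose gene symbol starts with Clec and a digit. Of 31 such rows among 23049 genes in the table, the rule leaves out 1 by name, and 30 are described here. No measured value enters that rule. The cells were F4/80-positive cells of the stomach corpus, the acid-secreting body of the stomach, taken by flow sorting from mice given L635 or DMP-777. Both compounds kill parietal cells; DMP-777 also inhibits neutrophil elastase, which its analog L635 does not. The series uses L635 to induce intestinalized spasmolytic polypeptide-expressing metaplasia (SPEM), and DMP-777 to induce SPEM without intestinal features. Each treatment had 3 libraries, and no untreated mice were analysed here. The labels used here name no strain, age, dose, treatment time or number of animals per library. The p-values therefore measure the spread between these libraries, which may be partly technical.

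C-type lectin domains are protein folds that often bind sugars in a calcium-dependent way, although many members bind lipids or proteins instead. On macrophages, activating members such as Mincle, MCL and Dectin-2 pair with the Fc receptor gamma chain, signal through the kinase Syk and the adaptor Card9, and sense fungi, mycobacteria and dead cells. Inhibitory members carry a cytoplasmic motif that recruits phosphatases, and others take up glycoproteins without a strong signal of their own. Many Clec genes lie side by side on mouse chromosome 6, in clusters that arose by gene duplication.

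Levels are given as RPKM, read numbers scaled by gene length and sequencing depth, which allows levels of different genes to be compared. The lowest value was 1 RPKM in every library, a floor that hides all lower levels. Steps among the low values put the depth at roughly 4300000 to 20900000 reads per library. Where 3 values of a gene are listed for a treatment, they follow the order of replicates 1, 2 and 3. The gene of the sort marker F4/80, Emr1, was at 97.9, 127 and 41.3 RPKM in the L635 libraries and at 46.1, 88.5 and 94.3 RPKM in the DMP-777 libraries. All 12 macrophage markers examined lay above the floor in every library, and their summed level was 1344 to 2677 RPKM in L635 and 1530 to 2709 RPKM in DMP-777. Gastric epithelial transcripts were also present. The 15 epithelial markers summed to 3768 to 4941 RPKM in L635 and to 5964 to 13528 RPKM in DMP-777, so that the ranges were apart. Taken singly, only 4 of the 15 were apart, Tff1, Tff2, Gkn1 and Gkn2, while others such as Epcam, Cdh1 and Krt8 overlapped. Tff1 alone was at 947, 800 and 842 RPKM in the L635 libraries and at 4947, 3609 and 1868 RPKM in the DMP-777 libraries. In such bulk samples, fewer cells of a type and less RNA per cell cannot be told apart.

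Before any comparison, 7 of the 30 members lay at the floor in all 6 libraries. These were Clec1a, Clec2e, Clec2h, Clec2j, Clec12b, Clec14a and Clec18a. Another 6 members were above the floor in only 1 or 2 libraries, which left 17 above it in at least 3 libraries and 14 above it in all 6. The comparison of treatments was made on these 17. With a filter of at least 1 library, the other 6 had log2 fold changes between -0.58 for Clec4b2 and 0.03 for Clec3b, and none of them passed an adjusted p of 0.05 in limma. Members passed this filter by their level in either treatment. Positions are those of the deposited table and lie on the genes of the GRCm38 build. On chromosome 6 lay 22 of the 30 members. A cluster of 9 genes from Clec4a1 to Clec4e spanned 368 kb and held 8 tested members. A second group of 10 members from Clec2j to Clec1a spanned 799.6 kb, with 4 tested members and 5 at the floor throughout.

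**Figure D1:**
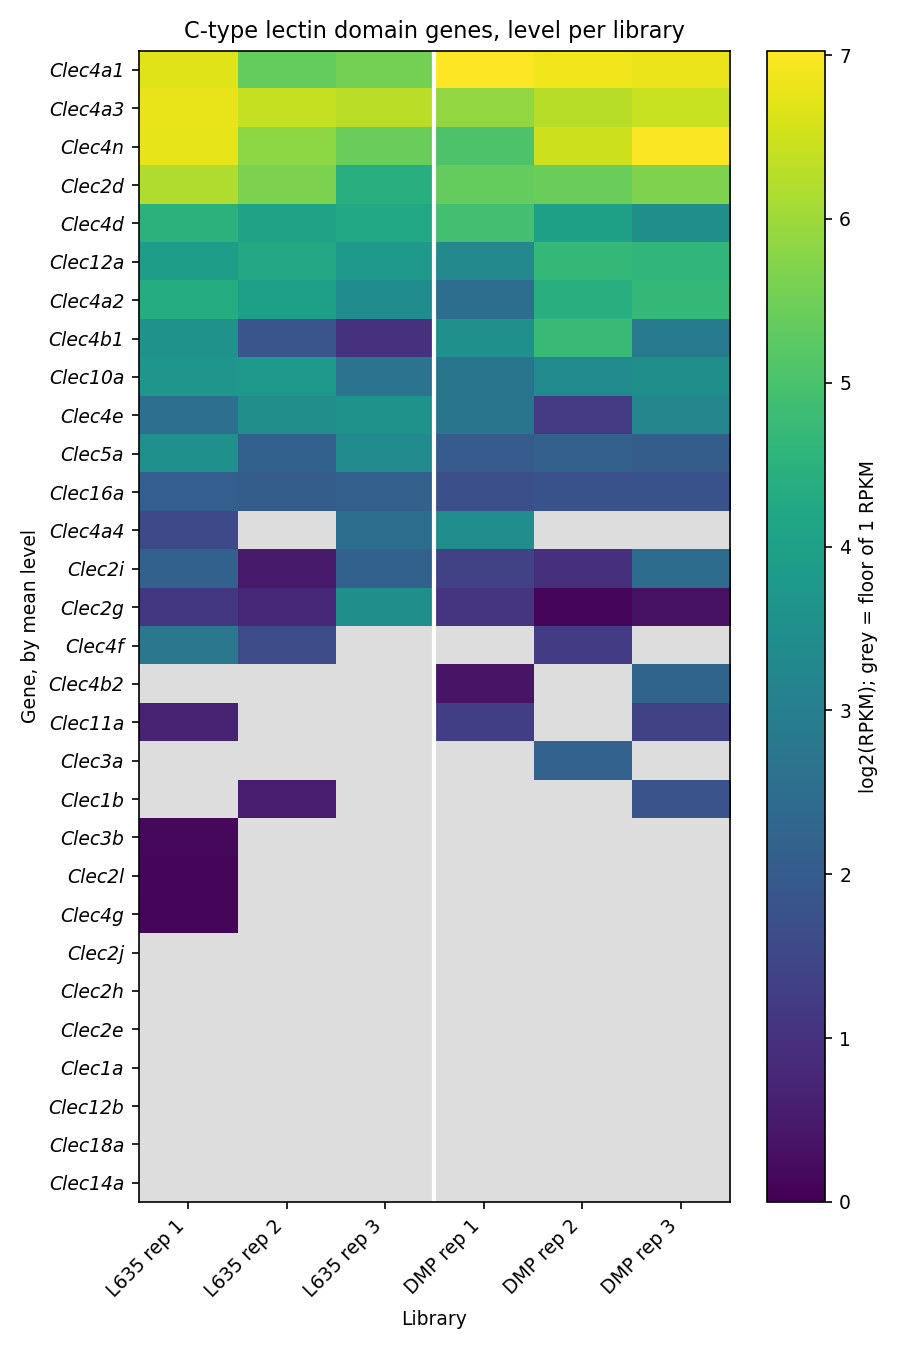
Level of all 30 members in each library, as log2(RPKM) on a colour scale, with genes down the page by mean level and the 3 L635 libraries left of the 3 DMP-777 libraries. Grey cells lie at the floor of 1 RPKM; 7 genes are grey throughout, and Clec4a1, Clec4a3, Clec4n and Clec2d lead in both treatments.

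Sequences are shown for Clec4a1, Clec5a and Clec16a, whose libraries did not overlap between treatments, and for Clec4a3, the neighbour of Clec4a1. Promoter windows of 250 bases before the transcription start were taken from RefSeq (GRCm38.p6) and matched 23 of the 30 members by symbol. Searched on both strands were the PU.1 core GAGGAA, bound by a transcription factor of myeloid cells, the AP-1 site TGANTCA, the C/EBP site TTGCNNAA and the TATA box TATAAA. Capitals mark these matches on either strand, and none of the matches in the 4 windows overlap.
Clec4a1 promoter, plus strand, chr6:122921598-122921847: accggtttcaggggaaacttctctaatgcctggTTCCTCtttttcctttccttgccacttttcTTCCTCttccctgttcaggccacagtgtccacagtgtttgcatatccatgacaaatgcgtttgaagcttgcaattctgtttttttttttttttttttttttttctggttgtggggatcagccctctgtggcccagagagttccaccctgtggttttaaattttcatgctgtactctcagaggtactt
Clec4a3 promoter, plus strand, chr6:122952265-122952514: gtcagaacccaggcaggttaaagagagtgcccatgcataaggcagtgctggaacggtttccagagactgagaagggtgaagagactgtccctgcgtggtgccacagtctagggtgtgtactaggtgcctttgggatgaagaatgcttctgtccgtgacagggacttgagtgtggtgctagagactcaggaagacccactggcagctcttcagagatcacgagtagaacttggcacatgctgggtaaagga
Clec5a promoter, minus strand, chr6:40585806-40586055: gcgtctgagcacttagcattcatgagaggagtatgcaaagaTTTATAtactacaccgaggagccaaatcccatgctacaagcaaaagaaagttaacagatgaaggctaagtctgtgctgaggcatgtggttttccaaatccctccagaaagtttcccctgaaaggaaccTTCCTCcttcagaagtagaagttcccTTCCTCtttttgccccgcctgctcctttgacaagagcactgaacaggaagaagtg
Clec16a promoter, plus strand, chr16:10545089-10545338: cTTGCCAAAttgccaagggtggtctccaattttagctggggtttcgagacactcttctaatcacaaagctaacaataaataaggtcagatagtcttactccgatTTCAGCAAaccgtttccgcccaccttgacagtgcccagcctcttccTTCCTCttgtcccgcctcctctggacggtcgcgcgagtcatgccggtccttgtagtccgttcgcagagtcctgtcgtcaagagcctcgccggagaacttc
The Clec4a1 window held 2 PU.1 cores, beginning 217 and 187 bases before the start, whereas the Clec4a3 window held none of the 4 motifs. In the Clec5a window 2 PU.1 cores began 81 and 55 bases before the start and a TATA box 209 bases before it. The Clec16a window held 1 PU.1 core and 2 C/EBP matches. Among the 14 tested members with a window, 8 held a PU.1 core, against 23.1% of 27025 RefSeq promoters of the same length. An AP-1 match occurred in 2 of these 14 and in 6.9% of all promoters, a C/EBP match in 4 and in 9.6%, and a TATA box in 3 and in 13%. Of all 23 members with a window, tested or not, 12 held a PU.1 core. Among them were Clec14a and Clec18a, which were at the floor in all libraries. A match of letters is not a measured binding site.

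Across the tested members, levels ran from the most abundant genes of the library to values near the floor. Clec4a1, Clec4a3, Clec4n and Clec2d had the highest means over all 6 libraries, at 91.6, 82.9, 76.2 and 46.4 RPKM, and were the 4 most abundant members in every library. The summed level of members above the floor was 380 ± 124 RPKM in L635 and 433 ± 66.0 RPKM in DMP-777 (SD, n = 3 each). A two-sided exact permutation test gave p = 0.6, where 0.1 is the smallest value 3 against 3 libraries allow. Of this sum, the 4 leading genes held 70.7 ± 5.21% in L635 and 74.2 ± 2.11% in DMP-777. The Clec4a1 to Clec4e cluster held 73 ± 2.66% in L635 and 78.8 ± 1.04% in DMP-777. Its share ran from 70.0% to 75.0% in L635 and from 78.2% to 80.0% in DMP-777, so that the ranges were apart. The same exact permutation test gave p = 0.4 for the share of the 4 leading genes and p = 0.1 for that of the cluster. Ranked by mean level, all 16 neighbouring pairs of the 17 genes had overlapping ranges over the 6 libraries. In 2 of the 16 pairs, Clec2d over Clec4d and Clec5a over Clec16a, the first gene was higher in every library.

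**Figure D2:**
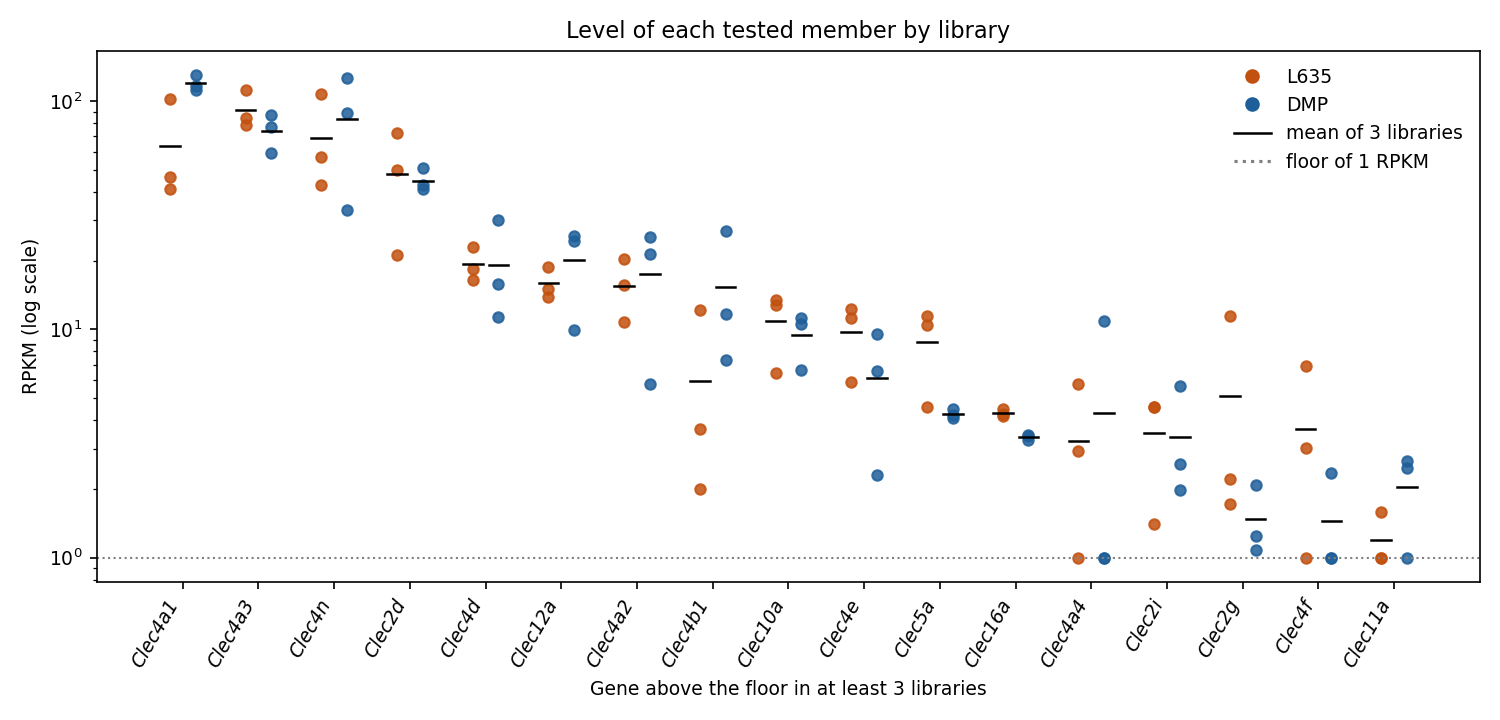
RPKM on a log axis for the 17 tested members, ordered by mean level, with each point 1 library, L635 left of DMP-777 for each gene and short lines at the mean of 3 libraries. The treatments lie apart for Clec4a1, Clec5a and Clec16a, while the other 14 genes overlap.

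L635 was compared with DMP-777 by limma on log2(RPKM + 1) over all 12102 tested genes, so fold changes of low genes are understated. No member and no other gene passed an adjusted p of 0.05, with 0 of 12102 genes (0% in either direction) and a smallest adjusted p of 0.308. At an unadjusted p below 0.05, 0 of 17 members were higher in L635, against 3.78% of all tested genes, and 2, Clec4a1 and Clec4b1, were lower, against 6.33%. Together that is 2 of 17 members, against 10.1% or 1223 of all tested genes. The L635 libraries lay entirely above the DMP-777 libraries for 2 members, against 7.25% of tested genes, and entirely below them for 1 member, against 8.75%. These 3 of 17 members stand beside 16% of all tested genes. A positive log2 fold change was found for 11 members and a negative one for 6, where 50.2% of all tested genes were positive and 49.8% negative. The median log2 fold change was 0.05 over the 17 members and 0.00 over all tested genes. The family's shares at an unadjusted p below 0.05 and with groups apart thus lay near those of the whole table. The 95% intervals of the members reached 0.64 to 1.47 to either side of the log2 fold change, with a median of 0.99.

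**Figure D3:**
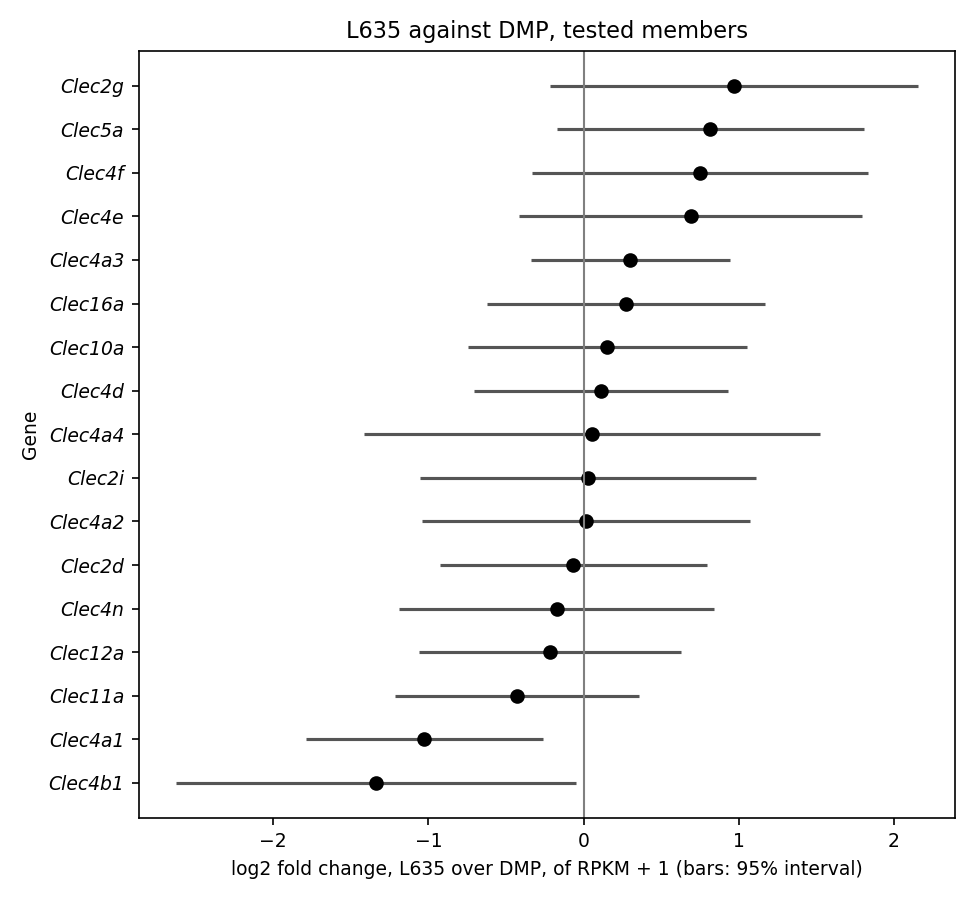
Log2 fold change of L635 over DMP-777 on log2(RPKM + 1) for the 17 tested members, with bars for the 95% interval from limma. The intervals of Clec4b1 and Clec4a1 lie below 0 without adjustment for the number of genes, and the other 15 include 0.

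The Clec4a genes encode the DCIR group, receptors of myeloid cells. Clec4a1, Clec4a3 and Clec4a4 stand at the start of the cluster, and Clec4a2 lies behind Clec4b1. Clec4a1 (chromosome 6, 122921848 to 122934619, plus strand) was at 102, 41.4 and 46.7 RPKM in the L635 libraries and at 130, 117 and 112 RPKM in the DMP-777 libraries. Every L635 library lay below every DMP-777 library, although L635 replicate 1 came close to DMP-777 replicate 3. Its mean was 63.4 ± 33.6 RPKM in L635 and 119.9 ± 9.35 RPKM in DMP-777 (SD, n = 3 each). The log2 fold change was -1.02 ± 0.35 (SE, limma adjusted p = 0.42), its 95% interval running from -1.79 to -0.26. Leaving out a library moved it between -1.42 and -0.78. The groups overlapped after quantile normalization, where it was -0.57. They also overlapped once a trend with exonic length (the merged exons of all transcripts of a gene) and GC content was subtracted, where it was -0.72. The transcript is short, at 1558 nucleotides, and the shortest of 3 length classes of tested genes had a median log2 fold change of -0.28, with all L635 libraries below in 15.4% of its genes. Centred on the macrophage markers, of which 8 of 12 had negative log2 fold changes with a median of -0.29, the value of Clec4a1 was -0.78 and the groups were still apart. Epithelial markers were lower in L635 too, 14 of 15 with negative values and a median of -0.53, and their part in the level of Clec4a1 was not tested.

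Clec4a3 (chromosome 6, 122952515 to 122969875, plus strand), the next gene of the cluster, had 112, 84.5 and 78.7 RPKM in the L635 libraries and 59.3, 76.7 and 86.8 RPKM in the DMP-777 libraries. These ranges overlapped, at a log2 fold change of 0.30 (95% interval from -0.34 to 0.94, limma adjusted p = 0.749). Leaving out a library moved this between 0.15 and 0.42, and after quantile normalization it was 0.77 with the groups apart. Clec4a3 was the most abundant member in all 3 L635 libraries, whereas Clec4a1 led in DMP-777 replicates 1 and 2 and Clec4n in DMP-777 replicate 3. Within a library, the ratio of Clec4a1 to Clec4a3 does not depend on scaling by depth. It was 0.915, 0.490 and 0.593 in the L635 libraries and 2.20, 1.53 and 1.29 in the DMP-777 libraries. Clec4a1 was thus the lower of the pair in every L635 library and the higher in every DMP-777 library. Among the 21 pairs that the 7 cluster genes above the floor in all libraries can form, this was the only one whose ratio did not overlap between treatments. The 21 pairs share their genes and are not independent. Groups were apart for 16% of single genes, which is a different measure, and no such share was computed for ratios of other gene pairs. The pair was singled out after its values were seen, and its difference is given without a test.

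**Figure D4:**
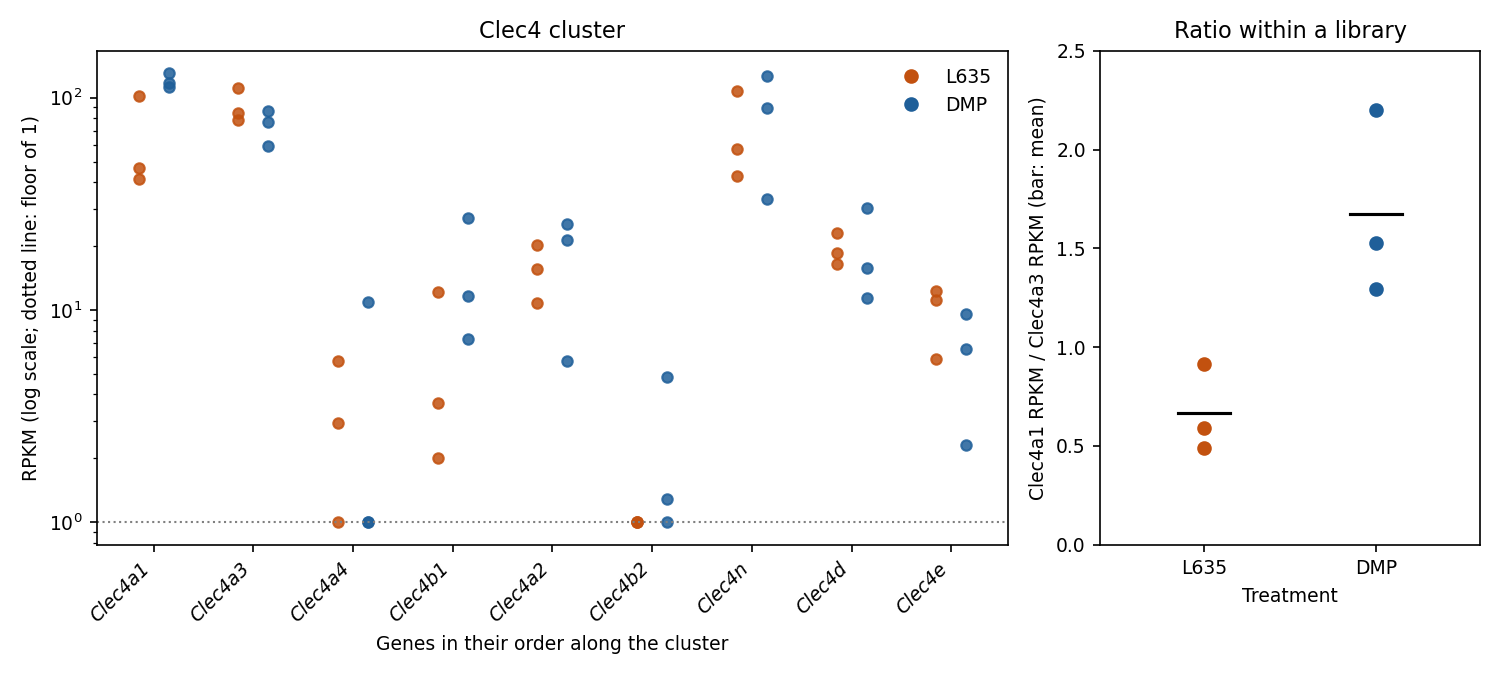
Left, RPKM on a log axis for the 9 genes of the Clec4 cluster in their order along the chromosome, each point 1 library, L635 left of DMP-777. Right, the ratio of Clec4a1 to Clec4a3 in each library with the mean as a bar, between 0.490 and 0.915 in L635 and between 1.29 and 2.20 in DMP-777.

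The coding sequences of Clec4a1 and Clec4a3 were aligned to see whether reads of this pair could be confused. They are identical at 71.6% of 705 aligned bases, and none of the 50-base stretches in GENCODE transcripts of either gene occurs in a transcript of another gene. Their most similar ungapped stretch of 60 bases, with the 5 differing bases in capitals, is shown from GENCODE M21 transcripts.
Clec4a1, coding bases 319 to 378: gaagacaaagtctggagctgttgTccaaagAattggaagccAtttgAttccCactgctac
Clec4a3, coding bases 298 to 357: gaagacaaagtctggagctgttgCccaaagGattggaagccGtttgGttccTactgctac
Other cluster genes are closer to each other. Clec4a2 is identical to Clec4a4 at 85.7% and to Clec4b1 at 84.8% of aligned coding bases, and it shares 114 and 68 stretches of 50 bases with them. Values of Clec4a2, Clec4a4 and Clec4b1 are therefore uncertain where reads were short enough to fall within these stretches.

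Clec4a2 (chromosome 6, 123106428 to 123143999) encodes DCIR, an inhibitory receptor with a phosphatase-recruiting motif. It was at 20.2, 15.6 and 10.8 RPKM in the L635 libraries and at 5.78, 21.4 and 25.4 RPKM in the DMP-777 libraries. The low value in DMP-777 replicate 1 set the spread, and the log2 fold change was 0.02 (95% interval from -1.04 to 1.08). Without that library it was -0.60. Clec4a4, also known as DCIR2, was at 2.93, 1 and 5.77 RPKM in the L635 libraries and at 10.9, 1 and 1 RPKM in the DMP-777 libraries. It was thus at the floor in 3 libraries, and no direction can be read from it (log2 fold change 0.05, 95% interval from -1.42 to 1.52).

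Clec4b1 encodes DCAR, an activating receptor of the same cluster that pairs with the Fc receptor gamma chain. Its level was 12.1, 3.64 and 2.00 RPKM in the L635 libraries, against 11.6, 27.1 and 7.30 RPKM in the DMP-777 libraries. L635 replicates 2 and 3 lay below all DMP-777 libraries, while L635 replicate 1 lay above DMP-777 replicates 1 and 3. With -1.34 ± 0.60 (SE), Clec4b1 (chromosome 6, 123049962 to 123071555) had the lowest log2 fold change of the family (limma adjusted p = 0.481), with an unadjusted p under 0.05. The 3.64 RPKM of L635 replicate 2 correspond to about 12 reads at the estimated depth. Leaving out a library moved the value between -1.94 and -0.85. The summed mast cell and eosinophil markers were 951, 171 and 15.97 RPKM in L635 and 241, 401 and 223 RPKM in DMP-777. This sum had the same order within each treatment as Clec4b1. Mcpt2 and Cpa3 of that list had this order too, whereas its mast cell genes Mcpt1 and Kit and its eosinophil genes Ccr3 and Prg2 did not. In the DMP-777 libraries Mcpt1 was at 46.5, 107 and 95.6 RPKM and Kit at 2.53, 2.01 and 2.20 RPKM. In the L635 libraries Ccr3 was at 2.11, 77.5 and 3.27 RPKM and Prg2 at 1, 14.6 and 3.55 RPKM, and Epx was at the floor throughout. Summed dendritic cell markers were 101, 38.8 and 20.7 RPKM in the L635 libraries and 30.5, 73.2 and 59.9 RPKM in the DMP-777 libraries. The part of either in the level of Clec4b1 was not tested. Its paralog Clec4b2 lay at the floor in all L635 libraries and reached 1.29 and 4.83 RPKM in DMP-777 replicates 1 and 3.

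Dectin-2, MCL and Mincle close the cluster. Clec4n (chromosome 6, 123229843 to 123247021), which encodes the mannan receptor Dectin-2, was at 108, 57.1 and 42.8 RPKM in the L635 libraries and at 33.5, 89.1 and 127 RPKM in the DMP-777 libraries. The DMP-777 libraries alone spanned a wider range than the L635 libraries, and the log2 fold change was -0.17 (95% interval from -1.19 to 0.84, limma adjusted p = 0.916). The MCL gene Clec4d (chromosome 6, 123262107 to 123275268) was at 22.9, 16.5 and 18.5 RPKM in the L635 libraries and at 30.2, 15.8 and 11.3 RPKM in the DMP-777 libraries, all L635 libraries falling inside the DMP-777 range. Its log2 fold change was 0.11 (95% interval from -0.71 to 0.93).

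Mincle, the receptor of mycobacterial cord factor and of a protein released by dead cells, is encoded by Clec4e (chromosome 6, 123281789 to 123289870, minus strand). Clec4e was at 5.90, 11.2 and 12.2 RPKM in the L635 libraries, against 6.58, 2.31 and 9.56 RPKM in the DMP-777 libraries. L635 replicates 2 and 3 were the highest libraries, and L635 replicate 1 lay below DMP-777 replicates 1 and 3. The log2 fold change was 0.69 (95% interval from -0.41 to 1.79, limma adjusted p = 0.664), and 0.21 without DMP-777 replicate 2. Clec4d and Clec4e, which encode partners in a shared receptor complex, had a ratio of 3.88, 1.48 and 1.51 in the L635 libraries and of 4.58, 6.84 and 1.19 in the DMP-777 libraries. These ratios overlapped.

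Clec5a encodes MDL-1, an activating receptor of monocytes, macrophages and neutrophils that pairs with the adaptor Tyrobp (DAP12). Clec5a (chromosome 6, 40574894 to 40585821, minus strand) was at 11.5, 4.57 and 10.5 RPKM in the L635 libraries, against 4.11, 4.46 and 4.20 RPKM in the DMP-777 libraries. Replicates 1 and 3 of L635 were at more than 2 times the level of all DMP-777 libraries, and L635 replicate 2 exceeded the highest of them by a small margin. Its mean was 8.83 ± 3.72 RPKM in L635 and 4.26 ± 0.184 RPKM in DMP-777 (SD, n = 3 each). On the log2 scale L635 was higher by 0.82 ± 0.46 (SE), at an adjusted p of 0.561 in limma. Groups overlapped once the length and GC trend was subtracted, at 0.78, and after centring on the macrophage markers, at 1.06. Monocyte and neutrophil markers gave no common direction beside it, with 4 of 7 tested markers positive and 3 negative, and Ly6g at the floor in all libraries. The summed level of the 10 listed markers was 267 to 608 RPKM in L635 and 192 to 474 RPKM in DMP-777, and its part in the level of Clec5a was not tested.

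Clec12a (chromosome 6, 129342691 to 129365303) encodes an inhibitory receptor for uric acid crystals. It was at 15.02, 18.8 and 13.9 RPKM in the L635 libraries and at 9.91, 25.8 and 24.5 RPKM in the DMP-777 libraries, so that the L635 libraries lay inside the DMP-777 range. The log2 fold change was -0.22 (95% interval from -1.06 to 0.63). The related inhibitory gene Clec12b was at the floor in every library.

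Among the uptake receptors, Clec10a (chromosome 11, 70156197 to 70170834) encodes MGL1, which binds galactose-type sugars on macrophages and dendritic cells. It was at 12.8, 13.4 and 6.44 RPKM in the L635 libraries and at 6.60, 10.5 and 11.3 RPKM in the DMP-777 libraries. The ranges overlapped, with a log2 fold change of 0.15 (95% interval from -0.75 to 1.05). Reads of Clec10a are uncertain, since 9.0% of its 50-base stretches also occur elsewhere, mostly in its neighbour and close paralog Mgl2. Clec4f, a galactose-binding receptor known from Kupffer cells of the liver, was at 6.93, 3.03 and 1 RPKM in the L635 libraries and at 1, 2.35 and 1 RPKM in the DMP-777 libraries. It was at the floor in libraries of both treatments, and its log2 fold change of 0.75 had a 95% interval from -0.33 to 1.83. Without L635 replicate 1 it was 0.26. The liver sinusoid lectin Clec4g was above the floor only in L635 replicate 1, at 1.06 RPKM.

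The Clec2 genes encode ligands of natural killer cell receptors. Clec2d (chromosome 6, 129180615 to 129186534), a ligand of the inhibitory receptor encoded by Klrb1b, was at 72.8, 49.9 and 21.2 RPKM in the L635 libraries and at 41.1, 42.7 and 50.8 RPKM in the DMP-777 libraries. The highest and the lowest library both belonged to L635, and the log2 fold change was -0.07 (95% interval from -0.92 to 0.79). Klrb1b itself was at 4.505, 1.23 and 5.88 RPKM in the L635 libraries and at 6.30, 10.1 and 13.9 RPKM in the DMP-777 libraries. It was lower in every L635 library than in every DMP-777 library (log2 fold change -1.28, limma adjusted p = 0.45). Of all tested genes 8.75% lay below in this way, and 15.4% of those in the shortest length class, to which Klrb1b belongs. Among 27 other tested genes with C-type lectin domains it was the only 1 apart. Klrb1a, Klrb1c and Klrb1f had positive values of 0.33, 0.34 and 0.48, with overlapping ranges. The 12 lymphoid markers summed to 22.9 to 31.6 RPKM in L635 and to 25.3 to 37.5 RPKM in DMP-777, and their part was not tested.

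Clec2i and Clec2g were far lower than Clec2d. Clec2i was at 4.58, 1.41 and 4.55 RPKM in the L635 libraries and at 2.56, 1.97 and 5.63 RPKM in the DMP-777 libraries, with a log2 fold change of 0.03 (95% interval from -1.05 to 1.11). Clec2g was at 2.20, 1.71 and 11.4 RPKM in the L635 libraries and at 2.09, 1.08 and 1.24 RPKM in the DMP-777 libraries. A single library, L635 replicate 3, stood out. The value of 0.97 was the highest log2 fold change of the family (limma adjusted p = 0.565), and it was 0.28 without that library. Reads of these paralogs may be shared, since 4.1% of the 50-base stretches of Clec2i and 3.9% of those of Clec2g occur in other genes, mainly in each other. Clec2e, Clec2h and Clec2j were at the floor in all libraries, among them Clec2h, which is known from intestinal epithelium. The brain-expressed Clec2l was above the floor only in L635 replicate 1, at 1.10 RPKM.

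Members known from other tissues were at or near the floor. The endothelial genes Clec14a and Clec1a lay on it throughout, as did the endothelial markers Kdr, Emcn and Tie1, 3 of 10 such markers. Summed endothelial markers were 12.1 to 17.7 RPKM in L635 and 15.4 to 18.4 RPKM in DMP-777, where 10 markers at the floor would sum to 10. Clec1b, the podoplanin receptor of platelets and some myeloid cells, was above the floor in L635 replicate 2, at 1.46 RPKM, and in DMP-777 replicate 3, at 3.45 RPKM. Clec3b, which encodes the plasma protein tetranectin, reached 1.11 RPKM in L635 replicate 1 and was otherwise at the floor. The cartilage gene Clec3a was at 4.65 RPKM in DMP-777 replicate 2 alone, about 16 reads at the estimated depth. Clec11a, a secreted growth factor of bone and blood stem cells, was at 1.59, 1 and 1 RPKM in the L635 libraries and at 2.47, 1 and 2.64 RPKM in the DMP-777 libraries, with a log2 fold change of -0.43 (95% interval from -1.22 to 0.36).

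Clec16a (chromosome 16, 10545339 to 10744878, plus strand) bears the family name but is known as an endosomal protein of autophagy and mitophagy, not as a surface receptor. Clec16a was at 4.25, 4.17 and 4.46 RPKM in the L635 libraries and at 3.29, 3.44 and 3.41 RPKM in the DMP-777 libraries. All L635 libraries lay above all DMP-777 libraries, with little spread, at 4.29 ± 0.150 RPKM in L635 and 3.38 ± 0.0800 RPKM in DMP-777 (SD, n = 3 each). On the log2 scale the difference was 0.27 ± 0.41 (SE, limma adjusted p = 0.844), where the error is drawn by limma towards that of other genes of this level. Clec16a has the longest exonic length of the tested members, 8368 nucleotides, and the longest length class had a median log2 fold change of 0.23. With that trend and the one on GC content subtracted, the value of Clec16a was 0.08 and the groups overlapped, as they did after quantile normalization, at 0.11, and after centring on the macrophage markers, at 0.51.

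Exonic length stood beside the direction of change in the whole table. The median log2 fold change was -0.28 in the shortest of 3 length classes, -0.01 in the middle class and 0.23 in the longest. Of the 17 members, 13 belonged to the shortest class, 3 to the middle class and 1 to the longest. The 13 in the shortest class had 8 positive values and a median of 0.03, where 32.9% of all tested genes of that class were positive. With the length and GC trend removed, the median of the 17 members was 0.30, against -0.03 for all tested genes. The groups were then apart for Clec4a3, at 0.63, and for Clec2g, at 1.06, both higher in L635, and no longer for Clec4a1, Clec5a and Clec16a.

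The signalling partners were described from lists of named genes. None passed an adjusted p of 0.05 in limma. Of 12 adaptors and proximal kinases, 8 had positive and 4 negative log2 fold changes, with a median of 0.31, and 1 was higher and 0 lower at an unadjusted p below 0.05, against 3.78% and 6.33% of all tested genes. Syk, the kinase shared by the activating members, was at 24.0, 46.6 and 22.2 RPKM in the L635 libraries and at 7.11, 16.5 and 24.2 RPKM in the DMP-777 libraries. Its log2 fold change was 0.98 (limma adjusted p = 0.481), although the ranges overlapped. The phospholipase Plcg2 had 0.77 with all L635 libraries above, the only one of the 12, against 7.25% of all tested genes, and the exchange factor Vav1 had 0.64. The adaptor chains that the receptors need at the membrane were the most abundant of the list. Fcer1g, the Fc receptor gamma chain, was at 285, 274 and 141 RPKM in the L635 libraries and at 256, 363 and 358 RPKM in the DMP-777 libraries, a log2 fold change of -0.53, and Tyrobp had -0.18. Both adaptors overlapped between treatments. Syk, at 9362 nucleotides, belongs to the longest length class, with a median log2 fold change of 0.23 over its tested genes. Fcer1g and Tyrobp, at 874 and 667 nucleotides, belong to the shortest class, with a median of -0.28. Plcg2 and Vav1 belong to the middle class. The part of length in the values of this list was not tested.

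Further down the pathway, the list of 14 genes of the Card9 module and the NF-kappaB and NFAT factors had 8 positive and 6 negative values, with a median of 0.19. At an unadjusted p below 0.05, 4 of the 14 were higher and 0 lower in L635, and groups were apart for 5, all higher, beside background shares of 3.78% and 7.25%. Of the 14 genes, 9 belong to the longest length class, where 5.5% of genes were higher at that p and 12.6% had all L635 libraries above. With the length and GC trend subtracted, 2 of the 14 were higher at an unadjusted p below 0.05 and groups were apart for 3. Rel, an NF-kappaB subunit of blood cells, was at 17.1, 34.2 and 26.2 RPKM in the L635 libraries and at 7.26, 11.4 and 13.4 RPKM in the DMP-777 libraries (log2 fold change 1.19, limma adjusted p = 0.413). The protease Malt1 was at 10.05, 12.3 and 16.8 RPKM in the L635 libraries and at 2.81, 2.53 and 8.85 RPKM in the DMP-777 libraries (log2 fold change 1.44). Ikbkb, the kinase that releases NF-kappaB, had 1.08. With the length and GC trend subtracted, these values were 0.98 for Rel, 0.96 for Malt1 and 0.67 for Ikbkb. Of these genes, only Rel then had an unadjusted p below 0.05 in limma, and the groups overlapped for Malt1. In contrast, the adaptor Card9 had -0.26 and its partner Bcl10 -0.42 without that subtraction, both with overlapping ranges. Of the 4 phosphatases recruited by inhibitory receptors, 3 were positive and 1 negative, with Inpp5d at 0.71, Ptpn6 at 0.52 and Ptpn11 at 0.08.

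Cytokines known to be induced through Mincle and Dectin-1 were mostly too low to test. The gene of Dectin-1, Clec7a, has no row under that symbol in the deposited values, so it was not set aside by the rule. Of 10 listed, 3 were tested, with log2 fold changes of 1.31 for Tnf, 0.73 for Cxcl2 and -0.09 for Il1b, and Il2 and Il23a were at the floor throughout. Of 53 other genes with C-type lectin domains and no Clec symbol, 13 were at the floor in all libraries and 27 were tested, 20 with positive and 7 with negative values and a median of 0.34. At an unadjusted p below 0.05, 1 was higher and 1 lower, against 3.78% and 6.33% of all tested genes. The lower of these was Klrb1b, given with its ligand Clec2d. The matrix proteoglycan Vcan had 1.04.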

How the data were processed

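RNA was amplified with a NuGEN Ovation kit and sequenced as single-end reads, per the labels' protocols. Per the submitters' processing notes, FastQC, TopHat 1.4, SAMtools and mm9 were used, without stated roles; no label names the quantification tool or annotation. The authors deposited 1 column per library of normalized values, taken here as RPKM because value times exonic length falls weakly on steps, as scaled reads do. Depths come from those steps (products up to 15000, lengths up to 4000 nucleotides), can be wrong by a whole factor, and allow no count test. Gene coordinates are those of the table, of which 99.8% overlap the same gene in GENCODE M21 (GRCm38), although the notes name mm9.

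Groups come from the sample titles. L635 and DMP-777 were compared by limma (version 3.58.1, run in R 4.3.3) after log2(RPKM + 1); its two-sided moderated test used a trend of variance on mean, with p-values adjusted by Benjamini-Hochberg over all tested genes and a threshold of 0.05. Genes above 1 RPKM in at least 3 libraries were tested, 12102 of 23049. The fit was tested on simulated data with 200 changed genes in each of 10 runs. These were drawn only from genes at or above the median level of tested genes, and no floor was applied. The fit found 12.1% of those shifted by 1 log2 unit, 83.2% at 2 units and 99.4% at 3 units. Changes in genes of lower level were not simulated. The members and lists were chosen with earlier results of these data known. All members are named; from each signalling or lectin list up to 3 tested genes with the smallest p are named, except 1 that is not reported here, and Fcer1g, Tyrobp, Card9, Bcl10 and single floor or marker genes were chosen after their values were seen. Alternatives covered pseudocount, filter, normalization, library weights, trend and each library left out. Chosen after seeing the data were subtraction of a loess curve (span 0.5) fitted to exonic length and GC content and centring on 12 macrophage markers. There were 0 unused value columns.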

Additional observations from a re-analysis of the deposited data

How the results depend on the processing

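Each of the 17 tested members had 16 alternatives, 272 values in all, of which 34 in 8 members had the opposite sign, whose reported values lay between -0.22 and 0.15. The other 9 members, among them Clec4a1, Clec4b1, Clec5a, Clec16a, Clec4a3, Clec4e and Clec2g, kept their sign under all 16. No alternative brought a member past an adjusted p of 0.05 in limma, and the count over all genes was 0 in each except centring on macrophage markers, which gave 2. That centring moved the median of all genes to 0.24 and the members' median to 0.29, and left groups apart for 1 member and for 7.2% of all tested genes. Removing the length and GC trend moved the members' median to 0.30. With a library left out, groups were apart for 4 to 7 members, and for 20.7% to 31.6% of all tested genes. The members' median then ranged from -0.0611 to 0.28. Of genes at an unadjusted p below 0.05, 37.4% were higher in L635, 26.5% after median centring, 47.1% after quantile normalization, 47% without the trend and 73.7% after centring on macrophage markers. Counting values up to 2 RPKM as low gives 10 members in place of 7 at the floor.

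Opposite signs arose as follows, the cause not being tested. Clec2d had 0.17 after quantile normalization, 0.30 without the length and GC trend and 0.18 centred on macrophage markers, and Clec4n had 0.20, 0.16 and 0.0673 under the same. Clec12a had 0.0247 centred on macrophage markers. Clec2i had -0.14 after quantile normalization and -0.0584 after median centring. Clec4a2 had -0.0254 with a pseudocount of 5, -0.0709 after median centring and -0.18 with library weights. Clec4a4 had -0.0533 with a pseudocount of 5, -0.12 after quantile normalization and -0.0345 after median centring. With a library left out, the range was -0.0611 to 0.46 for Clec10a, -0.64 to 0.0117 for Clec12a, -0.44 to 0.42 for Clec2d, -0.21 to 0.43 for Clec2i, -0.60 to 0.38 for Clec4a2, -0.38 to 0.91 for Clec4a4, -0.18 to 0.48 for Clec4d and -0.72 to 0.23 for Clec4n. No paired analysis was possible because the title numbers are not shared between treatments. The 3 libraries per treatment and the floor, which hides fewer reads in shallow libraries, limit what could be detected.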
